A study of Mus musculus with 16 samples.

Results

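The AP-1 transcription factor genes described here are Fos, Fosb, Fosl1, Fosl2, Jun, Junb, Jund, Atf3 and Maff. They were chosen by symbol, and all 9 were found once in every library among the 24060 genes listed. AP-1 is a dimer of basic leucine zipper proteins. Jun proteins can pair with each other or with a Fos protein, whereas Fos proteins need a Jun partner, and Atf3 and the small Maf protein Maff join the same network. Fos, Fosb and Junb are immediate early genes that neurons transcribe within minutes of activity, and Jun is known as a target of the stress-activated kinase JNK.

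RNA came from the somatosensory cortex of 3-month-old C57BL/6J mice with the genotype Aldh1l1CreERT2-RiboTag, in which tamoxifen switches on an HA-tagged ribosomal protein in cells with an active Aldh1l1 promoter, mainly astrocytes. All mice carried both alleles and received tamoxifen at 2 months of age. Stressed mice swam for 20 min and then spent 90 min in the home cage, 1 month after tamoxifen by the labels (the methods of the study give a shorter interval), while naïve mice never left the home cage. IP libraries held RNA bound to the tagged ribosomes and INPUT libraries held RNA of the whole cleared lysate, and there were 4 libraries in each of the naïve and stress groups of either kind. Libraries are named below by the number in their title, which runs over the whole series. Each mouse gave an IP and an INPUT library, but the labels do not say which belong together. Levels are in CPM, the reads of a gene scaled by the total of its library.

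Libraries held 16392876 to 25814364 reads on genes, so that 3 reads, taken here as the lowest readable level, correspond to 0.116 to 0.183 CPM. All 7 astrocyte markers were higher in naïve IP than in naïve INPUT, with a median log2 ratio of 3.47. All 6 neuron markers were lower (median log2 ratio −4.12, range −4.74 to −3.88) but none was at 0, and their sum was 423 to 551 CPM in naïve IP and 334 to 492 CPM after stress in IP, against 9753 to 10194 CPM in naïve INPUT and 9619 to 11272 CPM in stress INPUT. All 6 markers of the oligodendrocyte lineage, all 6 of microglia and 5 of 6 endothelial and mural markers were lower in naïve IP as well. The other endothelial and mural marker, Pdgfrb, was higher, with a mean of 132 CPM in naïve IP and 25.4 CPM in naïve INPUT. Naïve IP library 11 had the lowest value of its group for 41.6% of 12512 genes, against 18.8 to 20.6% for the other libraries of the group. In the other groups the highest such share was 34.6%, for naïve INPUT library 7. Results that rest on library 11 are given with and without it. Choroid plexus markers summed to 123 CPM in naïve IP library 2 and to at most 16.2 CPM in any INPUT library.

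The genes lie apart on the genome (GRCm38, the assembly also called mm10). Fos is at chr12:85473890-85477273, Fosb at chr7:19302696-19310051, Fosl2 at chr5:32135801-32157842, Jun at chr4:95049034-95052222, Junb at chr8:84974484-84978718 and Jund at chr8:70698949-70700616. Fosl1 is at chr19:5447547-5455946, Atf3 at chr1:191170296-191218039 and Maff at chr15:79346621-79359076. Some share bases with genes on the opposite strand. Junos overlaps 689 bases of Jun, Gm11175 overlaps 919 bases of Jund, the last 351 bases of Junb lie within Prdx2, and Ccdc85b overlaps 2767 bases of Fosl1. Whether reads were counted by strand is not given in the sources used here, so reads of these pairs may not be separable.

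The 110 bases before the transcription start are shown for the pair of Fos genes whose stress and naïve INPUT values did not overlap and for Jun, the member that passed the test in IP. They are RefSeq promoter sequences on GRCm38.p6, read 5′ to 3′ on the strand of the gene. Capitals mark TGACG, the core of a cAMP response element, in Fos and Fosb, and TGACATCA, a Jun-type AP-1 variant, in Jun. The windows are chr12:85473780-85473889 for Fos (plus strand), chr7:19310046-19310155 for Fosb (minus strand) and chr4:95052223-95052332 for Jun (minus strand).
Fos: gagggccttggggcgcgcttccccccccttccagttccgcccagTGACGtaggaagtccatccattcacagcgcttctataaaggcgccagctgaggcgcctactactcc
Fosb: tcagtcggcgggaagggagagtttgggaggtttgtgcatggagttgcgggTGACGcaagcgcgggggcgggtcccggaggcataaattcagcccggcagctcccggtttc
Jun: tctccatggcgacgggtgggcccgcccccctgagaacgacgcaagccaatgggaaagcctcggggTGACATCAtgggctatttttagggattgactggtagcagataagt

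The TGACG core begins 66 bases before the start of Fos, where another begins 129 bases before it, and 60 bases before the start of Fosb. The Jun-type variant begins 45 bases before the start of Jun. Both strands were searched over windows from 250 bases before to 50 bases after each start. TGACG, which also counts every TGACGTCA, was in 20.8% of the 32851 RefSeq windows and in those of 5 of the 8 members that had one (Fos, Fosb, Junb, Atf3 and Maff). TGACATCA was in 3.62% of windows and in those of Jun and Maff, and the full element TGACGTCA was in 1.79% of windows and in 1 of those of Maff. The AP-1 consensus TGACTCA (5.20% of windows) and the CArG box (1.63%) had no match in any member window. Sites more than 250 bases before a start were not searched. The Jund window lies around a RefSeq start at chr8:70697739 and does not reach the Jund span given above. A missing match is therefore no sign that a gene lacks the element. These matches describe the letters and not binding.

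Levels between genes were compared per length, as CPM per kilobase of exon. In astrocyte IP the Jun family stood far above the Fos family. Jund, known as the constitutively expressed member of the family, had 27.6 ± 1.72 CPM per kb in naïve IP (mean ± SD, n = 4 here and below) and Jun had 24.1 ± 5.84, and their ranges overlapped. Junb followed at 3.15 ± 0.942, Fos at 1.53 ± 0.250 and Fosl2 at 0.737 ± 0.141, each with a range apart from that of the next. Maff at 0.345 ± 0.0929 and Fosb at 0.202 ± 0.0584 overlapped. In stress IP the order of these 7 was the same, but the ranges of Jund (23.3 ± 1.89) and Jun (13.4 ± 1.58) no longer met, while those of Junb and Fos did.

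Whole cortex had another order. Jund again came first in naïve INPUT (91.4 ± 9.51 CPM per kb), followed by Junb (28.7 ± 9.81) and Jun (19.4 ± 1.26), whose ranges overlapped. Fos (8.58 ± 4.30) and Fosl2 (6.52 ± 1.14) also overlapped, and Fosb came next at 3.27 ± 0.475. In stress INPUT Fos reached 17.0 ± 2.12 CPM per kb, a level whose range overlapped that of Jun (18.8 ± 1.54). Fosl2 (8.48 ± 1.19) and Fosb (7.13 ± 0.633) overlapped there as well.

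Fosl1 and Atf3 were at or near the lowest readable level in IP. Fosl1 had 7 reads over all 16 libraries and never more than 3 in one, with none in any stress IP library. Atf3, a stress-responsive repressor and activator of the ATF group, had 54 reads in all. It reached 3 reads at most in an IP library and 4 to 11 in each INPUT library, or 0.171 to 0.502 CPM. No fold change is given for either.

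Summed per length, Fos, Fosb, Fosl1 and Fosl2 made up 2.06 to 3.02 CPM per kb in naïve IP and 2.47 to 3.82 in stress IP, against 11.7 to 25.2 in naïve INPUT and 31.2 to 36.4 in stress INPUT. The sum of Jun, Junb and Jund was 48.5 to 61.4 CPM per kb in naïve IP, 34.8 to 43.7 in stress IP, 116 to 157 in naïve INPUT and 139 to 166 in stress INPUT. The ratio of the Jun sum to the Fos sum was thus 20.3 to 24.0 in naïve IP and 10.7 to 17.7 in stress IP. In INPUT it was 5.72 to 9.93 in naïve and 3.90 to 5.34 in stressed mice. Jun itself supplied 34.9 to 49.8% of the Jun sum in naïve IP and 33.3 to 34.1% in stress IP, against 13.0 to 16.3% in naïve INPUT and 11.4 to 13.9% in stress INPUT. These sums, ratios and shares restate the levels of the single members and were not tested.

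**Figure D1:**
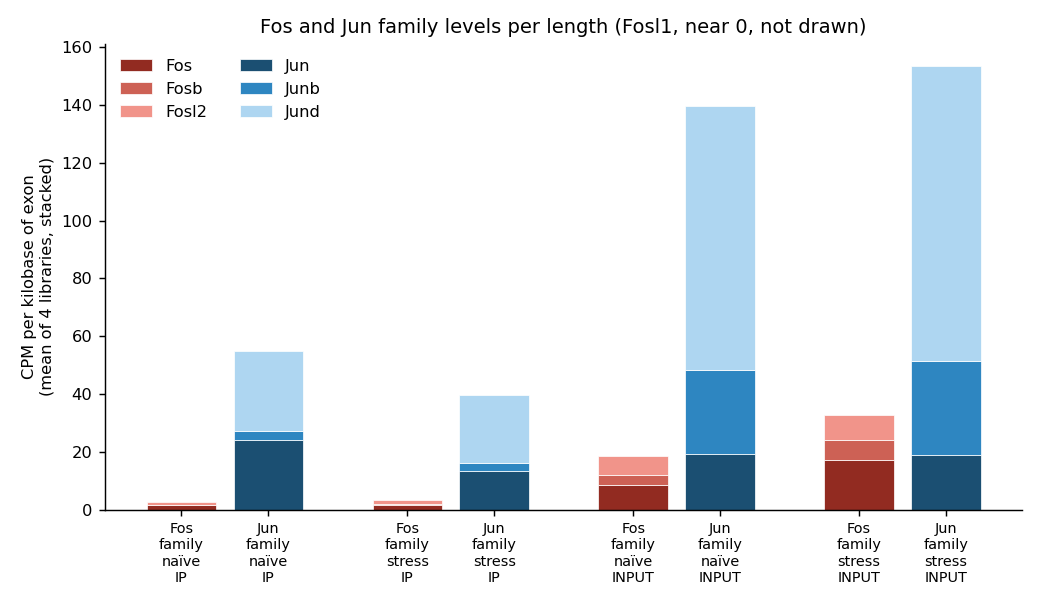
Stacked bars give the mean level of each Fos family gene (reds) and Jun family gene (blues) in CPM per kilobase of exon, with 4 libraries in each of the groups named under the bars. The Jun bars exceed the Fos bars in all 4 groups, and Junb is a small part of the Jun bar in IP (5.81% on average in naïve IP) but not in INPUT (20.2% in naïve INPUT).

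The first comparison asks which AP-1 messages are found on astrocyte ribosomes relative to whole cortex. On log2(CPM + 0.1) with limma, 5 of the 6 members tested in naïve mice were lower in IP and none was higher. Over all genes 64.0% were called lower and 23.7% higher, and all genes had a median log2 ratio of −0.64, so a low ratio alone does not set the members apart. Relative to INPUT, Fosb had a log2 ratio of −3.88 ± 0.21 (± SE, as for all log2 values below), Junb of −3.13 ± 0.27, Fosl2 of −3.12 ± 0.15, Fos of −2.30 ± 0.31 and Jund of −1.72 ± 0.08, with adjusted p from 6.1e-11 (Jund) to 1.1e-05 (Fos). The median ratio of the members tested was −2.71. Fosb averaged 0.765 CPM in naïve IP (10 to 24 reads), and its place in this test rests on its 12.4 CPM in naïve INPUT. Maff, with 0.895 CPM in naïve IP and 0.845 CPM in naïve INPUT, was not tested. The ratio of Fosb lay close to those of the 6 neuron markers. It was also within the range of the microglia markers (−4.47 to −2.74, median −3.21). For the endothelial and mural markers (−3.89 to 2.37, median −2.31) it lay beside the lowest marker. How far RNA of other cells contributes to the Fosb reads in IP was not tested.

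Jun was the member tested with a ratio closest to 0. In naïve IP it had 93.6, 66.4, 55.8 and 91.3 CPM in libraries 2, 8, 11 and 13, and in naïve INPUT 60.3, 61.2, 67.6 and 58.2 CPM in libraries 3, 7, 14 and 16. Library 11 was below every INPUT library and the other IP libraries were above or among them, so the groups overlapped. The log2 ratio was 0.28 ± 0.14 (95% CI −0.02 to 0.58, adjusted p 0.070 with limma, exact permutation p = 0.26, n = 4 per group), and without library 11 it was 0.42 with an adjusted p of 0.0018. Rescaling by the median ratio of each library to an average library, which brings the median of all genes to 0.00, gave 0.92 with an adjusted p of 1.9e-05. Under that scaling the calls over all genes went from 3158 higher and 8540 lower to 5599 higher and 5635 lower, and the other 5 members stayed lower in IP, Fos with a log2 ratio of −1.67.

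After stress, 6 of the 7 members tested were lower in IP than in INPUT, against 62.5% of all genes called lower. The median log2 ratio was −2.90 for the members tested and −0.63 for all genes. The ratios were −4.45 ± 0.19 for Fosb, −3.56 ± 0.24 for Junb, −3.30 ± 0.16 for Fos, −2.90 ± 0.14 for Fosl2, −2.12 ± 0.08 for Jund and −0.50 ± 0.09 for Jun. For Jun the direction depends on the scaling, since median-ratio scaling gave 0.14 (95% CI −0.09 to 0.36, adjusted p 0.23), and the lower Jun level in IP of stressed mice does not hold under that scaling. Maff, with 0.365 to 1.47 CPM in stress IP and 1.15 to 1.83 CPM in stress INPUT, had a ratio of −0.63 ± 0.36 that did not pass the test (adjusted p 0.11). It was −0.056 with median-ratio scaling and −0.91 with array weights, the only one of 9 such alternatives to call it (adjusted p 0.027). Median-ratio scaling split the calls over all genes into 5461 higher and 5505 lower, in place of 3143 and 8332. The neuron markers had a median ratio of −4.25 in stressed mice (range −5.13 to −4.06). The medians were −3.41 for microglia (−4.70 to −2.40), −3.42 for the oligodendrocyte lineage (−3.95 to −2.81) and −2.50 for endothelial and mural markers (−3.65 to 2.31).

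**Figure D2:**
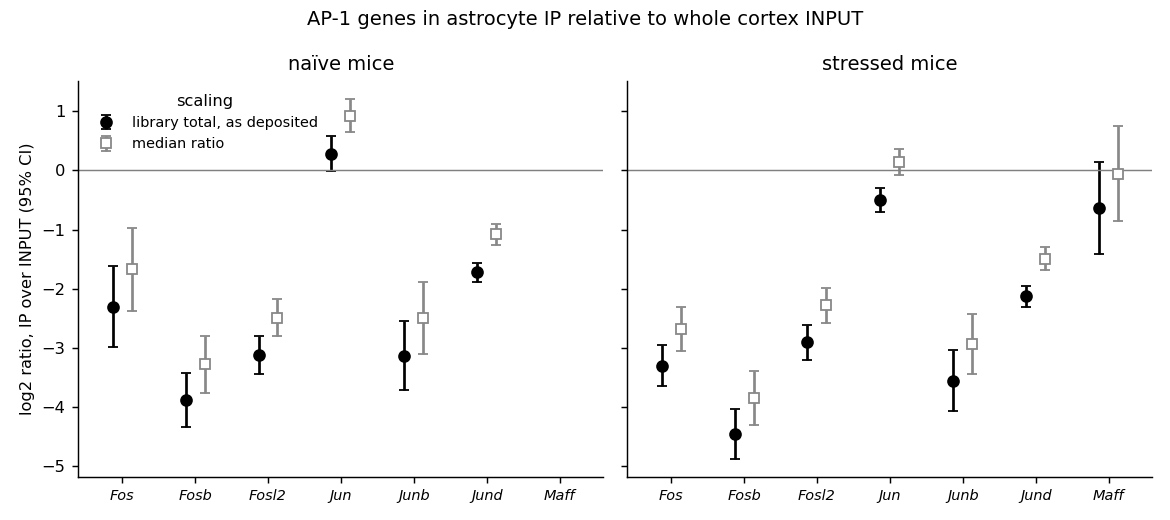
Points give the log2 ratio of IP over INPUT for each member tested, with 95% confidence intervals, in naïve mice (left) and stressed mice (right), 4 libraries per group. Filled circles use library totals as deposited and open squares median-ratio scaling. Among the members drawn, Jun lies closest to the zero line in naïve mice (0.28 with library totals, 0.92 with median-ratio scaling). In stressed mice Jun lies at −0.50 and 0.14, and with median-ratio scaling Maff (−0.056) lies closer to that line. Fosb lies lowest, and Maff has no naïve point because its mean was too low for the test.

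The next comparison, stress against naïve within astrocyte IP, is the main one of the study. Jun was the only one of the 5 members tested to pass the threshold, and it fell. Of all genes tested 0.44% were called, 0.224% in the lower direction. The median log2 difference of the 5 members was −0.18, and that of all genes was −0.0036. Fosb and Maff, too low for the test, are not in this median, and their log2 differences were 0.56 and 0.074. The 4 stress IP libraries had 37.6, 47.5, 39.0 and 46.4 CPM of Jun (libraries 4, 5, 6 and 15), all below the lowest naïve IP library at 55.8 CPM. The means were 42.6 ± 5.04 CPM in stress IP and 76.8 ± 18.6 CPM in naïve IP, a 1.77-fold lower level with a log2 difference of −0.82 ± 0.15 (95% CI −1.16 to −0.49, limma adjusted p 0.044, exact permutation p = 0.029, the smallest that 4 against 4 libraries allow). In bulk RNA such as IP, fewer cells of a type and less ribosome-bound RNA per cell cannot be told apart.

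The size of the Jun difference held in each fit that left out a library (−0.96 to −0.72), but the call did not. Without naïve libraries 2, 8 or 13 or stress libraries 4, 5 or 6, the adjusted p was 0.093 to 0.17. Without naïve library 11, the naïve library with the lowest Jun level, the difference was −0.96 with an adjusted p of 0.0023, and without stress library 15 it was −0.86 with an adjusted p of 0.029. Naïve library 2, which held the choroid plexus signal, had the highest Jun level, and without it the difference was −0.72 with an adjusted p of 0.17. The call was also lost with no filter on low values, limma-voom, a variance that does not follow expression and Xist as a covariate (adjusted p 0.47, 0.054, 0.18 and 0.055). The neuron markers had a median log2 difference of −0.25 in the same comparison, with 0 of 6 called by limma and 1 at an unadjusted p under 0.05, and the ranges of their sums given above overlapped. Of the endothelial and mural markers 4 were tested, with a median of −0.33, none called by limma and 2 at an unadjusted p under 0.05. The sum of all 6 was 142 to 167 CPM in naïve IP and 107 to 151 CPM after stress. Most of it was Pdgfrb, with 124 to 149 CPM in naïve IP and 89.0 to 134 CPM after stress. The choroid plexus markers had a median of −1.24 over the 2 tested, and neither was called nor had an unadjusted p under 0.05. In naïve mice the log2 ratio of IP over INPUT was 0.28 for Jun and −4.74 to −3.88 for the neuron markers. It was −3.89 to 2.37 for the endothelial and mural markers, and −0.35 and 2.38 for the 2 choroid plexus markers tested. The part of any of these markers' cells in the change of Jun was not tested.

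For Jund, the other Jun gene at a high level in IP, the difference did not pass the test. It had 45.7, 42.0, 47.6 and 48.5 CPM in naïve IP, against 34.8, 41.0, 37.9 and 41.7 CPM after stress. Every stress value was below every naïve value, although the nearest values, 42.0 and 41.7 CPM, lay close together, and a separation of this kind in the lower direction was seen in 2.62% of all genes tested. The log2 difference was −0.24 ± 0.08 (unadjusted p 0.0087, adjusted p 0.36 with limma).

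Junb, Fos and Fosl2 did not pass the test in astrocytes either. Junb had 4.06, 4.43, 7.48 and 6.82 CPM in naïve IP, against 3.92, 7.59, 3.19 and 5.83 CPM after stress, with full overlap and a log2 difference of −0.18 ± 0.27 (95% CI −0.77 to 0.42). For Fos the naïve values were 3.08, 2.64, 3.25 and 3.91 CPM and the stress values 3.39, 2.91, 3.19 and 4.94 CPM. Its log2 difference was 0.14 ± 0.19 with a 95% CI of −0.28 to 0.56. Fosl2, whose product pairs with Jun proteins as Fos does, had 5.14, 4.52, 3.72 and 5.89 CPM in naïve IP, against 8.47, 5.77, 8.17 and 6.95 CPM after stress. One stress library lay within the naïve range, and the log2 difference was 0.60 ± 0.17 (95% CI 0.23 to 0.97) with an unadjusted p of 0.0040 and an adjusted p of 0.25 in limma.

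Fosb and Maff had a mean under 1 CPM over the IP libraries and were outside the test across genes. Fosb had 0.783, 0.448, 0.901 and 0.930 CPM in naïve IP (10 to 24 reads) and 1.38, 0.789, 0.958 and 1.57 CPM in stress IP (16 to 39 reads). The groups overlapped, and the exact permutation test gave p = 0.11 for a log2 difference of 0.56. Maff had 0.636 to 1.12 CPM in naïve IP, against 0.365 to 1.47 CPM after stress, which also overlapped (exact permutation p = 0.89).

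**Figure D3:**
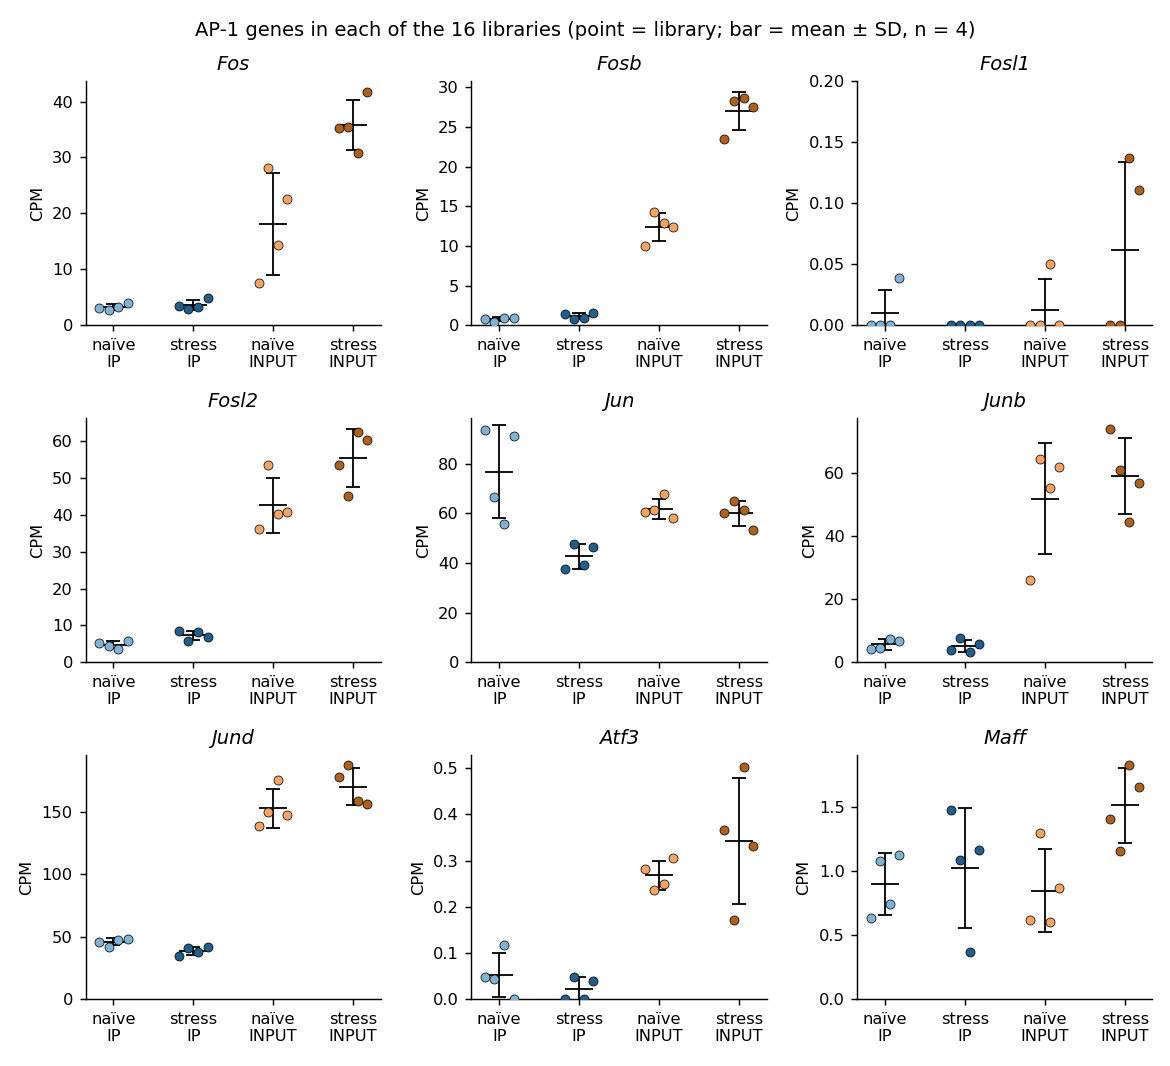
Each panel plots the CPM of a member in all 16 libraries on a linear axis from 0, with points for libraries and bars for the mean ± SD of 4. For Jun the stress IP points (37.6 to 47.5 CPM) lie below all naïve IP points, and for Fosb and Fos the stress INPUT points lie above all naïve INPUT points.

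In whole cortex, where the same contrast was run on INPUT, another member passed the threshold. Fosb, which encodes FosB and the long-lived splice form ΔFosB, was the only one of 7 members tested to pass the threshold, and it rose. Of all genes tested 0.0442% were called, 0.0368% in the higher direction, and Fosb had the smallest p of 13577 genes. It had 9.94, 14.2, 12.9 and 12.4 CPM in naïve INPUT and 23.4, 28.2, 28.6 and 27.5 CPM in stress INPUT, and every stress value lay well above every naïve value. The means were 12.4 ± 1.80 and 27.0 ± 2.40 CPM, a 2.18-fold higher level, with a log2 difference of 1.13 ± 0.11 (95% CI 0.88 to 1.37, limma adjusted p 0.0018). All 8 fits that left out a library called it, with adjusted p from 0.0015 to 0.019. The call was lost with no filter on low values, with a variance that does not follow expression and with all 16 libraries in one model (adjusted p 0.24, 0.087 and 0.090). The median log2 difference of the 7 members was 0.38, against −0.0025 for all genes. It includes Fosb and Maff, so it covers other members than the median in IP.

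Fos had a difference of the same size with a wider spread. Its naïve INPUT values were 7.45, 28.0, 14.3 and 22.6 CPM, while the stress INPUT values were 35.3, 35.4, 30.9 and 41.7 CPM. The groups did not overlap, as was the case in the higher direction for 1.43% of all genes tested. The log2 difference was 1.14 ± 0.29 (95% CI 0.50 to 1.77, unadjusted p 0.0019, adjusted p 0.40 in limma). The highest naïve value was 3.76 times the lowest.

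The naïve INPUT libraries ordered several members alike. Library 3 was the lowest of the group for Fos, Fosb, Fosl2, Junb and Jund, and library 7 was the highest for Fos, Fosb, Fosl2, Junb and Maff. Over all 13590 genes above 1 CPM in the group, library 3 was the lowest for 19.4% and library 7 the highest for 20.2%. Without library 3 the difference of Fos was 0.77 and that of Junb turned from 0.25 to −0.056.

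Fosl2 and Maff were higher in stress INPUT on average without passing the test. Fosl2 had 36.2, 53.4, 40.2 and 40.7 CPM in naïve INPUT and 53.6, 45.2, 62.5 and 60.4 CPM in stress INPUT, a log2 difference of 0.38 ± 0.12 with an adjusted p of 0.61. Maff had 0.621, 1.30, 0.598 and 0.865 CPM against 1.40, 1.15, 1.83 and 1.66 CPM, on 11 to 40 reads, with a log2 difference of 0.81 ± 0.28 and an adjusted p of 0.79. In both cases 1 library of a group reached into the range of the other.

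The Jun family showed no difference past the test in INPUT. Jun had 60.3, 65.0, 61.5 and 53.2 CPM in stress INPUT, which spans much of the naïve range given above, and its log2 difference was −0.04 ± 0.07 (95% CI −0.20 to 0.11). Junb had 26.0, 64.6, 55.3 and 62.0 CPM in naïve INPUT and 74.0, 61.1, 44.6 and 56.9 CPM in stress INPUT (0.25 ± 0.24). Jund had 138, 149, 175 and 147 CPM in naïve INPUT and 178, 187, 159 and 156 CPM in stress INPUT (0.16 ± 0.08, adjusted p 0.99).

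**Figure D4:**
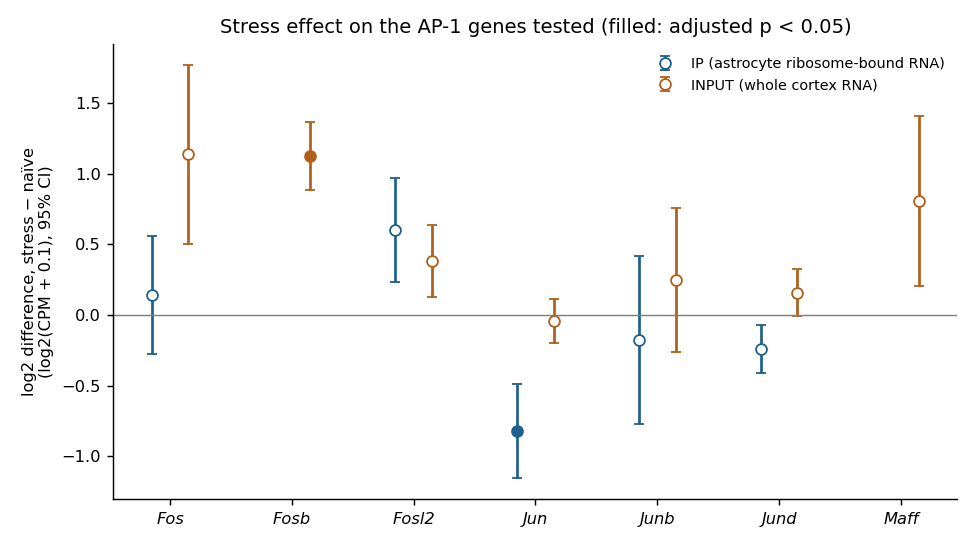
Points give the log2 difference of stress against naïve with its 95% confidence interval for each member tested in IP (blue) and INPUT (brown), and filled points passed an adjusted p of 0.05. Jun in IP (−0.82) and Fosb in INPUT (1.13) are the filled points, and Fosb and Maff have no IP point because their mean was too low for the test.

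The direction in astrocytes was set against that in whole cortex by testing the difference of both stress effects over all 16 libraries. None of the 7 members tested passed the threshold in limma, nor in limma-voom, and 0.0225% of all genes passed it in limma. An unadjusted p under 0.05 was reached by 3 of them, against 4.71% of all genes, and the median difference was −0.57 for the members and −0.0047 for all genes. For Jun the stress effect in IP minus that in INPUT was −0.78 ± 0.18 (95% CI −1.16 to −0.39, unadjusted p 0.00049, adjusted p 0.33). It was −0.92 with an adjusted p of 0.012 without naïve IP library 11, the only one of 16 such fits with a call. Jund had a difference of −0.40 ± 0.11 (unadjusted p 0.0025, adjusted p 0.57), with effects of opposite sign in IP and INPUT. For Fos it was −0.99 ± 0.40 (unadjusted p 0.022, adjusted p 0.98). Fosb had −0.57 ± 0.30, which is also the median of the members, Junb −0.43 ± 0.41, Maff −0.73 ± 0.48 and Fosl2 0.22 ± 0.22. Fosb (0.765 CPM in naïve IP, 1.17 CPM in stress IP) and Maff (0.895 and 1.02 CPM) were too low for the test within IP. Their place in the test of the difference rests on INPUT. Thus the effect of stress on Jun is not shown to differ between IP and INPUT, although Jun passed the threshold in IP and not in INPUT. Fosb passed it in INPUT, but its low level in IP leaves this test unable to decide for Fosb.

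Other genes of the pathway were taken from lists. Among 12 further dimer partners of AP-1, 7 were tested and none was called in either stress comparison by limma or limma-voom, with an unadjusted p under 0.05 for 1 in IP and 3 in INPUT, where 8.27% and 5.03% of all genes had one. Their median log2 difference was −0.069 in IP and −0.0058 in INPUT, where all genes had −0.0036 and −0.0025. Mafk, a small Maf protein like Maff, had 8.93 ± 1.18 CPM in naïve INPUT and 12.0 ± 1.83 CPM after stress (log2 difference 0.42 ± 0.13, adjusted p 0.60). Jdp2, a repressor that pairs with Jun, had 79.9 ± 5.53 and 92.4 ± 7.77 CPM in the same groups (0.21 ± 0.07), and Atf7 had 8.87 ± 0.435 and 7.35 ± 0.582 CPM (−0.27 ± 0.11). Of these 7 genes, 6 were lower and Atf7 higher in naïve IP than in naïve INPUT, against 64.0% of all genes called lower and 23.7% called higher.

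Of 21 genes of the MAP kinase route to AP-1, 20 were tested in IP and 21 in INPUT. None was called in either by limma or limma-voom, and 1 and 2 had an unadjusted p under 0.05 (8.27% and 5.03% of all genes), with median log2 differences of −0.044 in IP and 0.011 in INPUT. The smallest p values belonged to the nuclear MAP kinase phosphatases Dusp5 and Dusp4 in INPUT. Dusp5 had 7.54 ± 1.99 CPM in naïve INPUT and 14.1 ± 2.20 CPM after stress (0.93 ± 0.18, adjusted p 0.11), and Dusp4 had 8.06 ± 0.849 and 12.3 ± 1.41 CPM (0.60 ± 0.12, adjusted p 0.11). For both genes all stress values lay above all naïve values, as they did for 1.43% of all genes tested. Dusp16, a phosphatase that acts on JNK, had 31.7 ± 1.45 CPM in naïve IP and 26.8 ± 2.39 CPM after stress (−0.24 ± 0.08, adjusted p 0.39).

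Of 15 factors that act on the Fos and Jun promoters, all were tested and none was called in either stress comparison by either tool, with 1 and 2 at an unadjusted p under 0.05 (8.27% and 5.03% of all genes). Their medians were −0.0099 in IP and −0.031 in INPUT on the log2 scale. Crtc2, a coactivator of CREB, had 9.50 ± 0.427 CPM in naïve IP and 7.42 ± 1.10 CPM after stress (−0.36 ± 0.12, adjusted p 0.39). Its relative Crtc1 had 121 ± 12.1 and 106 ± 9.03 CPM in naïve and stress INPUT (−0.19 ± 0.08), and Srf, which binds the CArG box, had 79.6 ± 3.73 and 86.5 ± 2.35 CPM (0.12 ± 0.05).

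Among 20 textbook AP-1 targets, 8 were tested in IP and 12 in INPUT, with no call by either tool. In each comparison 1 gene had an unadjusted p under 0.05 (8.27% and 5.03% of all genes), with median log2 differences of −0.040 and 0.070. Hmox1, heme oxygenase, had 3.93 ± 0.735 CPM in naïve INPUT and 5.19 ± 0.585 CPM after stress (0.40 ± 0.16, adjusted p 0.92). Bdnf, a neurotrophin gene, had 3.29 ± 0.565 CPM in naïve IP and 2.22 ± 0.707 CPM after stress (−0.59 ± 0.24, adjusted p 0.55). Penk, which encodes enkephalin, had 44.1 ± 1.79 and 38.5 ± 6.47 CPM in INPUT (−0.21 ± 0.10, adjusted p 0.99).

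Of 22 other immediate early genes, 20 were tested in IP and 1 was called, against 0.216% of all genes in the higher direction. It was the orphan receptor gene Nr4a1, with 10.3 ± 2.00 CPM in naïve IP and 28.2 ± 5.70 CPM after stress (1.45 ± 0.16, adjusted p 0.0033). Its relative Nr4a3 had 1.05 ± 0.232 and 2.53 ± 0.580 CPM (1.19 ± 0.23, adjusted p 0.057). An unadjusted p under 0.05 was found for 10 of the 20, against 8.27% of all genes. In INPUT none of the 22 was called by either tool and 8 had an unadjusted p under 0.05, against 5.03% of all genes. The median log2 difference of these genes was 0.12 in IP and 0.25 in INPUT. Egr4 had 19.1 ± 2.99 and 28.8 ± 3.50 CPM there (0.60 ± 0.12, adjusted p 0.12). In IP the same gene had 1.25 ± 0.345 CPM without stress and 1.07 ± 0.255 CPM after it.

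The genes closest in pattern were sought by the root mean square difference of centred log2 values over the 16 libraries, among 13341 genes. Values were centred over IP and INPUT together, so the gap between them weighs most in this measure. Nearest to Fosb were Islr2 (difference 0.36 log2 units), Egr4 (0.37) and Tesc (0.43), where the values of Fosb itself varied by 2.15 log2 units around their mean. Islr2 had 5.49 CPM in naïve IP, 5.41 in stress IP, 85.5 in naïve INPUT and 123 in stress INPUT on average. Fos was nearest to Wisp1 (0.43), N4bp3 (0.44) and Fam78a (0.46), and Junb to Klf10 (0.29), Ccdc155 (0.33) and Cecr6 (0.33). The nearest genes to Jun were Rnd3 (0.20), Sox11 (0.23) and Zbtb12 (0.24), where Jun itself varied by 0.35. Rnd3 averaged 25.2 CPM in naïve IP, 15.6 in stress IP, 19.4 in naïve INPUT and 19.6 in stress INPUT.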

How the data were processed

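The authors aligned 16 paired-end RNA libraries to mm10 with STAR, counted uniquely mapped reads on RefSeq genes with HTSeq, and deposited 1 table per library of log2 CPM. Values without their constant gave whole reads in 100% of cases (within 0.05 reads), which served limma-voom as an alternative. Limma-voom is the test named in the study's methods, with another filter on low values, and it did not call Jun in IP here. Gene length and scaling between libraries are not part of the deposited log2 values.

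Tests used limma 3.58.1 (R 4.3.3, eBayes with a trend) with a pseudocount of 0.1 CPM before the log2, for genes averaging more than 1 CPM in the fitted libraries, and a Benjamini-Hochberg adjusted p under 0.05 over all genes tested. Fold changes are on this scale, which understates those of low genes. For single members the exact permutation test was two-sided and ran over 70 labelings. IP and INPUT of the same mice were treated as independent, and sex is not labelled by library (Xist served as a covariate in an alternative). Replicates are separate mice by the study's methods. The members, lists and tests were chosen with earlier results of these data known. Named from the lists were genes past the threshold and up to 3 per list with the smallest p, and the 3 genes nearest in pattern to Fos, Fosb, Jun and Junb. Exon lengths and positions came from GENCODE M21 on GRCm38 and were found for 22758 symbols (94.6%). The fit was tried on simulated reads with the same added spread for every gene, a check of the code and not of the spread seen here. Precision is set by 4 libraries per group, and read floors cover counting error only. Tables used Python 3.11.15, pandas 2.3.3, NumPy 2.4.6 and matplotlib 3.10.9.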

Additional observations from a re-analysis of the deposited data

How the results depend on the processing

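No paired analysis was possible because the labels do not say which IP and INPUT libraries share a mouse, and the groups share no replicate number. In IP the count of members called went from 1 to 0 with no filter on low values, limma-voom, a variance without trend or Xist as a covariate (adjusted p of Jun 0.47, 0.054, 0.18 and 0.055), and was 0 to 1 when libraries were left out in turn. In INPUT it went from 1 to 0 with no filter, a variance without trend or all 16 libraries in one model (adjusted p of Fosb 0.24, 0.087 and 0.090). For the difference of both effects it went from 0 to 1 with array weights (Jun −0.85, adjusted p 0.038), and was 0 to 1 when libraries were left out. Directions turned for differences near 0: Fos in IP without stress library 15 (−0.015), Junb in IP without stress library 6 (0.019, range over libraries left out −0.39 to 0.019), Jun in INPUT without stress library 12 (0.011, range −0.084 to 0.011), Junb in INPUT without naïve library 3 (−0.056, range −0.056 to 0.38), and Jun in IP over INPUT after stress with median-ratio scaling (0.14). The cause was not tested. Maff, too low for the test in IP, went from 0.074 to −0.060 there without naïve library 2. Of the other values for single members tested, 299 kept direction and side of the threshold when libraries were left out (6 lost a call and 3 gained one), and 325 under the other alternatives (7 lost and 4 gained one). Over all genes, 55 calls in IP became 2 with no filter, 19 without trend, 143 with array weights and 124 with all libraries in one model, and 17 to 122 when libraries were left out. The 6 calls in INPUT became 1, 0, 50 and 2, and 1 to 32. The 3 calls for the difference became 2, 2 and 19 under the first 3 of these, and 2 to 28. Depth limits Fosl1 and Atf3, and Fosb and Maff in IP.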
